A study of Mus musculus with 12 samples.

Results

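Transcription factor genes that divide the ventral neural tube into progenitor domains were examined for open chromatin during the differentiation of mouse embryonic stem cells towards spinal motor neurons. The genes were Olig1, Olig2, Nkx6-1, Nkx6-2, Nkx2-2, Pax6, Irx3, Irx5, Dbx1 and Dbx2, that is 10 of 21938 protein-coding genes. Each was given the accessible domains that overlapped its transcription start site (TSS) within 1 kb, overlapped its gene body, or had its TSS as the nearest protein-coding TSS. Together the 10 genes held 147 to 198 domains in 5 lists and 123 in the iHoxc9 list. Merged over the lists these made 403 of 218562 regions.

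Accessibility had been measured by ATAC-seq, in which a transposase cuts open DNA, in 12 samples that form 6 groups of 2. Embryoid bodies (EB) were collected before patterning, and progenitors after 2 days in retinoic acid (RA, 1 µM) and the Hedgehog agonist SAG (0.5 µM), both from the parental line Ainv15(iCre). At day 4 of the same RA and SAG treatment, the iHoxc6, iHoxc9 and iHoxc10 groups came from the lines Ainv15(iFlag.Hoxc6), Ainv15(iFlag.Hoxc9) and Ainv15(iFlag.Hoxc10), whose Flag-tagged Hox gene was induced for 48 h from day 2 by 3 µg/mL doxycycline (Dox). The no Dox control at day 4 came from Ainv15(iFlag.Hoxc6) and received no doxycycline. Each transgene was inserted at the HPRT locus, and cultures at day 4 held motor neurons together with interneurons.

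A single list of domains, made from both replicates, stood for each group. The lists give positions and no height, so no spread between replicates, no read depth and no test could be had, and every difference below is a difference between 2 lists. The lists held 56232 domains (iHoxc10) to 94875 domains (EB) over 17.8 Mb (iHoxc9) to 29.7 Mb (no Dox). The no Dox list has another file form and record series than the others, and the line changed between progenitors and day 4, so line, list making and stage cannot be told apart there. All 3 induced lists were compared with this no Dox list, the longest of the 6 in covered length, and iHoxc9 and iHoxc10 differ from it in line as well, so list making and line cannot be told apart from induction either. Markers bore out the stages in part. Promoter domains of the pluripotency genes Pou5f1, Nanog, Zfp42 and Esrrb numbered 3 of 4 in EB, 1 in progenitors and 0 in all 4 day 4 lists. In contrast, promoters of motor neuron genes were already listed in EB for 5 of 6 genes and in iHoxc9 for 4. Over all genes, the share with a promoter domain ran from 59% in iHoxc10 to 65.6% in EB, with 59.3% in iHoxc9.

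In the neural tube, Sonic hedgehog spreads from the notochord and floor plate and sorts progenitors into dorsoventral domains. The Nkx and Olig factors are induced by the signal, while Pax6, Irx3 and the Dbx factors are repressed by it, and pairs of these factors repress each other to make sharp borders. Olig2 and Nkx6-1 mark the domain that makes motor neurons, Nkx2-2 the domain below it, and Irx3 and the Dbx genes the domains above it.

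For Olig1, Nkx6-1, Nkx6-2 and Irx3, which had at least 2-fold more open length in progenitors than in EB, 200 bp from the middle of the widest progenitor domain with no overlapping EB domain are shown, because each is the longest stretch open in progenitors and not in EB. They are read from GRCm38.p6 on the forward strand, 5′ to 3′. Capitals mark matches on either strand to E-boxes (CANNTG), SOX sequences (ACAATG or else ACAAAG), a homeodomain sequence (TAATNA, which includes TAATTA) and the core of the GLI sequence (ACCACCC).
Olig1, chr16:91301590-91301789, in an intron of Gm15966, 31.9 kb downstream: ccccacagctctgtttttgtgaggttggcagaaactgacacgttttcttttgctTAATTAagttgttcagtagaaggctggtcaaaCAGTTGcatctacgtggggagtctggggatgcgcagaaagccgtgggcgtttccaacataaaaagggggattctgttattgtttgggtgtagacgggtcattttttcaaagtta
Nkx6-1, chr5:101524377-101524576, intergenic, 141 kb downstream: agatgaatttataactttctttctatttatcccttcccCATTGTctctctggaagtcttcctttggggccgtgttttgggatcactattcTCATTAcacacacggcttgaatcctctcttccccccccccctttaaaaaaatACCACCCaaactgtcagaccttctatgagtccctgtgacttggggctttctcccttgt
Nkx6-2, chr7:139530691-139530890, in an intron of Inpp5a, 52 kb downstream: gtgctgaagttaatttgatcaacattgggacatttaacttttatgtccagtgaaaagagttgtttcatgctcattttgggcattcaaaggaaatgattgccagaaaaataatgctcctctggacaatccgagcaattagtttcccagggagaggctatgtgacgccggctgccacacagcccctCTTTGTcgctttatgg
Irx3, chr8:91997109-91997308, intergenic, 195 kb upstream: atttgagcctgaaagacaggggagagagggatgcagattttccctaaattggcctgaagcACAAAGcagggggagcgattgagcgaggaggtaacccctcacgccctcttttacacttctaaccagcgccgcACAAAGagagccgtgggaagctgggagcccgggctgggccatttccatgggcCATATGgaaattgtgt

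The GLI core stood only in the Nkx6-1 window among these 4 windows, and the CATATG form of the E-box only in that of Irx3. Over the widest such domain of 9 of the genes (all but Olig2), SOX sequences lay in 7 of 9 windows, E-boxes in 3, TAATNA in 3 and ATAAA, the sequence favoured by posterior Hox proteins, in 7. A wider count used every progenitor domain of the 10 genes that was at least 200 bp wide and absent from EB, which gave 41 windows. Among these, 36.6% held a SOX sequence, against 54.6% of 12386 such windows genome-wide and 29.9% of the windows on all regions of the 6 lists. The CAGATG E-box lay in 34.1% against 18.9% and 18.5%, and ATAAA in 61% against 45.3% and 36.7%. Any E-box was about as frequent in all 3 sets, at 65.9%, 67.3% and 68.7%, and the NKX sequence AAGTG was in 39%, 38.6% and 36.7%. TAATNA lay in 34.1% against 37.2% and 26.5%, TAATTA itself in 9.76% against 7.8% and 5.3%, and CAGCTG in 9.76% against 15.1% and 15.4%. The GLI core was found in 1 of 41 windows (2.44% against 2.71% and 2.74%), as was CATATG (2.44% against 3.43% and 4.17%). The full GLI sequence GACCACCCA was in none of the 41 (0.557% and 0.241% of the larger sets). Direct repeats of the RA receptor element AGGTCA or its variants GGGTCA and also AGTTCA were in none with 5 bases between (0.549% and 0.141%) and in 1 with 2 bases between (0.347% and 0.157%). These are matches of letters, and binding was not measured here.

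Olig2, which specifies motor neuron progenitors and later oligodendrocytes, had the highest ratio of progenitors to EB of the 10 genes. Its covered length, the summed width of its domains, was 1300 bp in EB, 5345 bp in progenitors, 6714 bp in no Dox, 4521 bp in iHoxc6, 2489 bp in iHoxc9 and 5210 bp in iHoxc10. All 5 patterned lists lay above EB, and iHoxc9 was the lowest of them. Against EB, progenitors were 3.89-fold higher (log2 ratio 1.96, each ratio here taken after adding 100 bp to both sides).

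The start of Olig2 was itself listed in every group. The region over the TSS was 232 bp wide in EB, 978 bp in progenitors, 1366 bp in no Dox, 1082 bp in iHoxc6, 541 bp in iHoxc9 and 805 bp in iHoxc10. A group of regions 51.9 to 57.1 kb upstream was not listed in every group. Its 3 progenitor domains of 443, 469 and 740 bp had no counterpart in EB or in iHoxc9, and the last of them none in iHoxc6 or iHoxc10 either.

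Olig1, the neighbour of Olig2 and a factor of oligodendrocyte maturation, was likewise longest in no Dox, and iHoxc9 was the lowest list after EB. Its covered length was 1157 bp in EB, 3326 bp in progenitors, 3947 bp in no Dox, 3430 bp in iHoxc6, 1816 bp in iHoxc9 and 3422 bp in iHoxc10. The promoter region was held by all 6 lists, with 679 bp in EB and 1025 to 1449 bp in the other lists. The region 31.9 kb downstream spanned 1273 bp in progenitors, 914 bp in no Dox, 668 bp in iHoxc6 and 586 bp in iHoxc10, and was not listed in EB or iHoxc9.

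**Figure D1:**
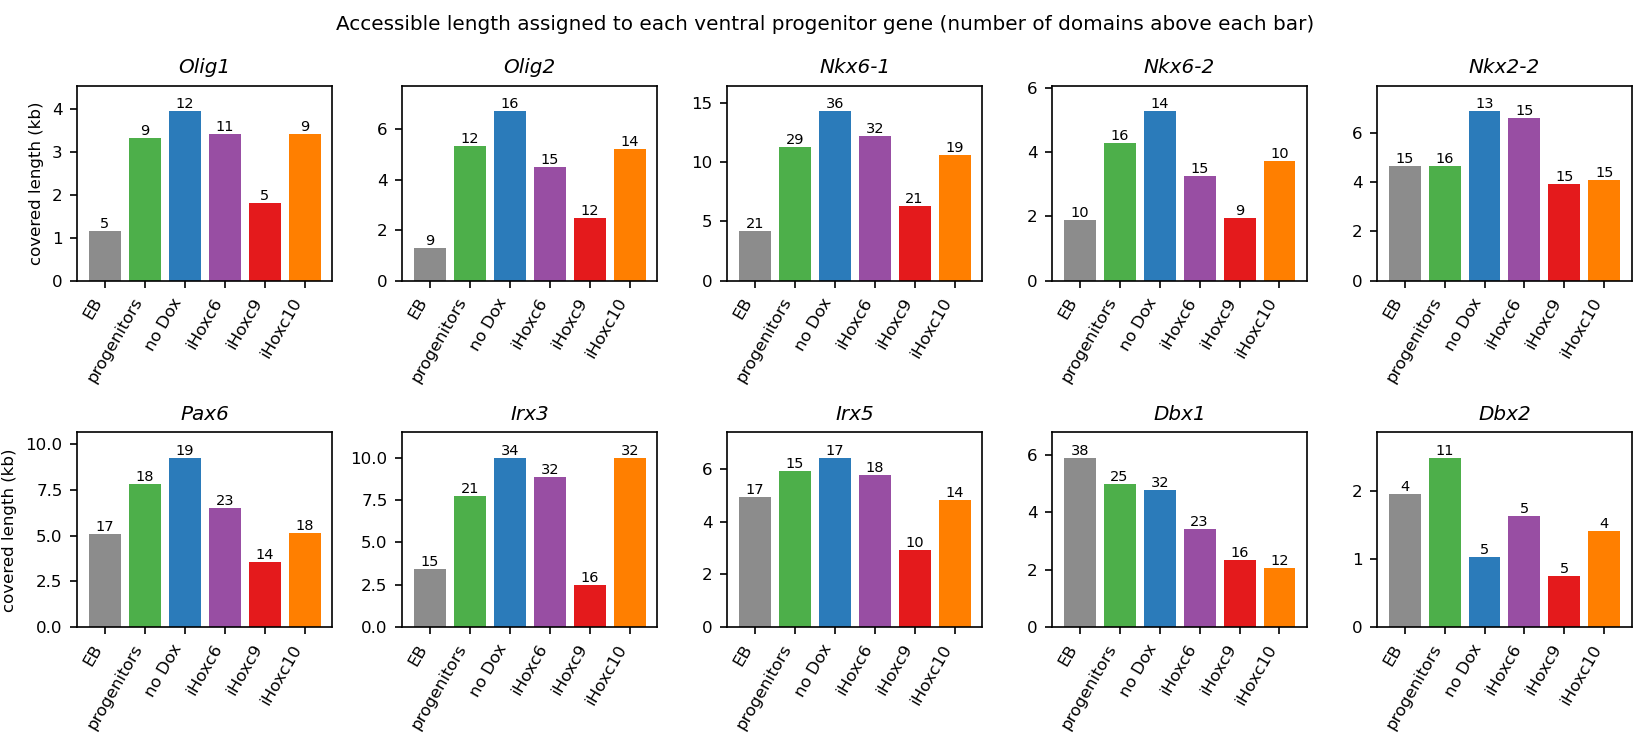
Covered length in kb (vertical axes, each from 0 and scaled to its own gene) of the domains assigned to each of the 10 genes in the 6 lists, with the number of domains above each bar. Every bar is 1 list made from both replicates, so there is no error bar. Olig2 stands at 1300 bp in EB and 5345 bp in progenitors, and Irx3 at 2511 bp in iHoxc9 and 9988 bp in iHoxc10.

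Nkx6-1 and Nkx6-2 are homeodomain repressors of the ventral domains, and Nkx6-1 lies upstream of Olig2 in motor neuron specification. Nkx6-1 covered 4220 bp in EB, 11234 bp in progenitors, 14272 bp in no Dox, 12174 bp in iHoxc6, 6272 bp in iHoxc9 and 10635 bp in iHoxc10. It thus had the longest open chromatin of the 10 genes in every list but EB, spread over a territory of 460 kb that lies nearer to its TSS than to any other. Per length of territory it was in the middle of the genes, with 2.44% open in progenitors against 6.12% for Olig2 and 1.18% for Dbx1.

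The difference at Nkx6-1 lay far from the gene. Of its 53 regions, 9 were held by progenitors and all 4 day 4 lists and not by EB, and they reached out to 367 kb downstream. The region 73.7 kb downstream spanned 454 bp in progenitors, 1727 bp in no Dox, 946 bp in iHoxc6, 619 bp in iHoxc9 and 1719 bp in iHoxc10. Near the gene the order was another. With only domains that overlap the TSS window or the gene body, the log2 ratio of progenitors to EB was -0.38, where the full assignment gave 1.39, and the promoter region was 1569 bp in EB, 1368 bp in progenitors and 3187 bp in no Dox.

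For Nkx6-2 the covered length was 1900 bp in EB, 4290 bp in progenitors, 5270 bp in no Dox, 3266 bp in iHoxc6, 1947 bp in iHoxc9 and 3727 bp in iHoxc10. The iHoxc9 value was thereby back near that of EB. Its region 52 kb downstream, inside Inpp5a, was among the steadiest, at 868 bp in progenitors, 774 bp in no Dox and 745 bp in each induced list, and was not listed in EB. The promoter region shortened from 1715 bp in no Dox to 421 bp in iHoxc9.

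Nkx2-2, which marks the most ventral progenitors that give V3 interneurons, did not differ in total length between the early lists. It covered 4651 bp in EB, 4673 bp in progenitors, 6888 bp in no Dox, 6601 bp in iHoxc6, 3929 bp in iHoxc9 and 4105 bp in iHoxc10. Within that total, the open length was spread differently over the regions, many of which both lists held. An exonic region 15.9 kb into the gene went from 1250 bp in EB to 233 bp in progenitors, while one at chr2:147187915-147188995, in introns of Nkx2-2 and Nkx2-2os and an exon of 6430503K07Rik, was absent from EB and spanned 1081 bp in progenitors, 871 bp in no Dox, 997 bp in iHoxc6, 470 bp in iHoxc9 and 738 bp in iHoxc10. That region is 5.79 kb downstream of the GENCODE start used here, which lies 7.84 kb from the RefSeq start, so it stands upstream of the latter. In the 300 bases around the RefSeq start, 53 bp were open in EB, 261 bp in progenitors and 300 bp in each day 4 list.

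Pax6, a broad neural progenitor factor that RA promotes, covered 5084 bp in EB, 7841 bp in progenitors, 9251 bp in no Dox, 6490 bp in iHoxc6, 3585 bp in iHoxc9 and 5166 bp in iHoxc10. Progenitors were 1.53-fold above EB, the nearest of the genes below the 2-fold limit, with Nkx6-2 (2.19-fold) the nearest above it. The main region was not at the outermost start. A region 6.43 kb into the gene spanned 975 bp in EB, 2761 bp in progenitors, 3002 bp in no Dox, 1825 bp in iHoxc6, 1362 bp in iHoxc9 and 1479 bp in iHoxc10. Around a second RefSeq start, 13.6 kb inside the gene, 135 bp were open in progenitors, 223 bp in no Dox and 300 bp in iHoxc6, and 0 bp in EB, iHoxc9 and iHoxc10. An intronic region 21.2 kb into the gene, chr2:105689478-105690647 in progenitors, was absent from EB and spanned 1170 bp there and 320 bp in iHoxc9.

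Irx3, whose product opposes Olig2 at the upper border of the motor neuron domain, differed most among the induced lines. Its covered length was 3406 bp in EB, 7729 bp in progenitors, 9987 bp in no Dox, 8888 bp in iHoxc6, 2511 bp in iHoxc9 and 9988 bp in iHoxc10. The iHoxc9 list was below EB, and iHoxc10 was level with no Dox. These lengths are not scaled to list length, which was 20.1 Mb in iHoxc10 and 29.7 Mb in no Dox. The number of domains moved likewise, with 34 in no Dox, 16 in iHoxc9 and 32 in iHoxc10.

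Regions 195 and 257 kb upstream of Irx3 were absent from both EB and iHoxc9. The first spanned 761 bp in progenitors, 756 bp in no Dox, 609 bp in iHoxc6 and 446 bp in iHoxc10, and the second 686 bp, 670 bp, 813 bp and 479 bp. On the other side, 28 regions assigned to Irx3 lay in the neighbouring gene Fto, and they covered 144 bp in EB, 21 bp in progenitors, 2999 bp in no Dox, 1746 bp in iHoxc6, 601 bp in iHoxc9 and 3287 bp in iHoxc10. Little of this length was listed before day 4. For Irx3 as a whole, 19 of 76 regions were in no Dox but in neither earlier list, and 28 were in induced lists only. Over all regions these classes made up 15.6% and 21.3%. The 28 were from 15 to 348 bp wide. Among the 19, the region 167 kb downstream spanned 431 bp in no Dox, 66 bp in iHoxc6 and 684 bp in iHoxc10, and was listed in none of the others.

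Irx5, the neighbour of Irx3 in the same gene cluster, differed little between EB and progenitors. It covered 4941 bp in EB, 5909 bp in progenitors, 6423 bp in no Dox, 5764 bp in iHoxc6, 2935 bp in iHoxc9 and 4843 bp in iHoxc10. Its promoter region was held by all 6 lists and spanned 1641 bp in EB, 2721 bp in progenitors, 2891 bp in no Dox, 2526 bp in iHoxc6, 2002 bp in iHoxc9 and 2347 bp in iHoxc10. None of its 42 regions was held by progenitors and all day 4 lists while missing from EB.

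**Figure D2:**
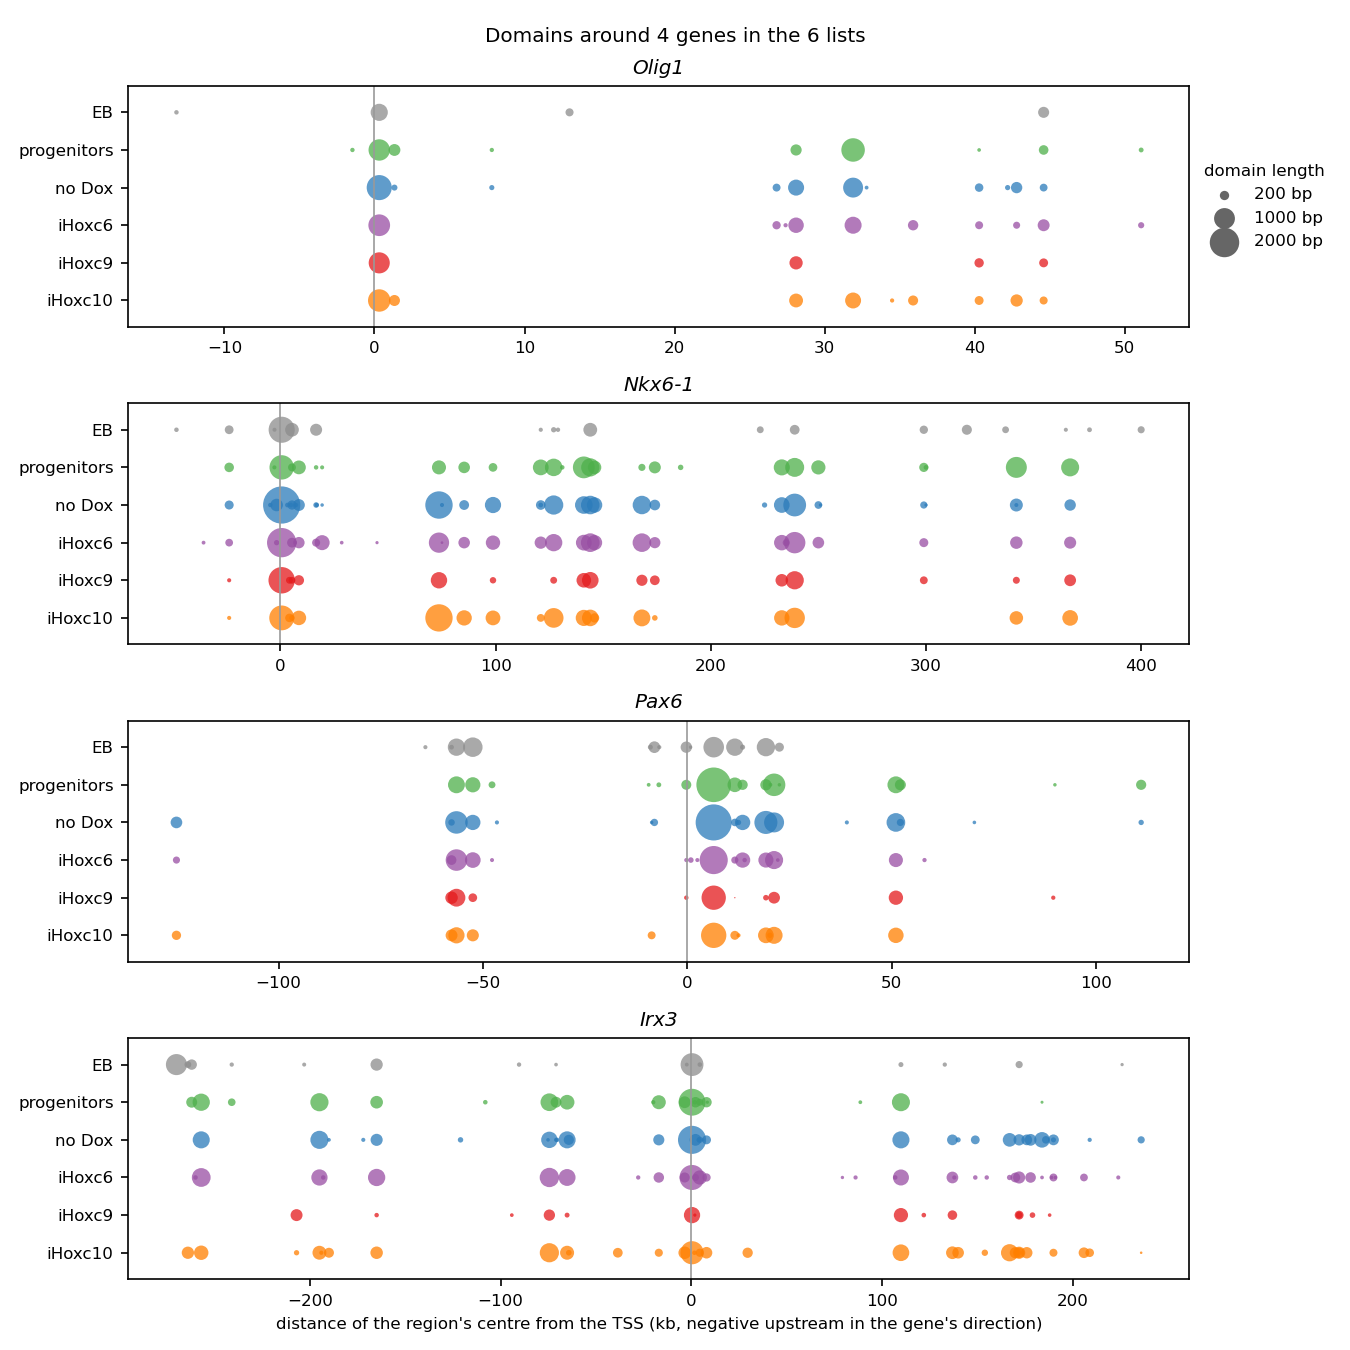
Domains around Olig1, Nkx6-1, Pax6 and Irx3 in the 6 lists (rows), by the distance in kb from the TSS to the centre of the region (horizontal axis), with the area of each point in proportion to the length open in that list. The Olig1 region 31.9 kb downstream and the Irx3 region 195 kb upstream are missing from EB and iHoxc9.

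The Dbx genes mark the intermediate progenitors of V0 and V1 interneurons. Dbx1 covered 5894 bp in EB, 4997 bp in progenitors, 4791 bp in no Dox, 3406 bp in iHoxc6, 2349 bp in iHoxc9 and 2069 bp in iHoxc10, and so was longest in EB. This order rests on far regions, since the log2 ratio of progenitors to EB was -0.23 with all assigned domains, 0.85 with the TSS of every transcript, 1.05 within 100 kb of the TSS and 1.85 at the TSS window or gene body. Of its 77 regions, 24 were in the EB list only, a class that held 21.1% of all regions. Most of the 24 lay in introns or exons of the neighbouring gene Nav2, up to 352 kb from the Dbx1 TSS. An intron of Dbx1 itself held a region 2.29 kb from the TSS that was absent from EB and spanned 586 bp in progenitors, 540 bp in no Dox, 342 bp in iHoxc6, 188 bp in iHoxc9 and 385 bp in iHoxc10.

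Dbx2 had the shortest open chromatin at day 4 of the 10 genes. Its values were 1959 bp in EB, 2493 bp in progenitors, 1032 bp in no Dox, 1637 bp in iHoxc6, 751 bp in iHoxc9 and 1413 bp in iHoxc10, from no more than 11 domains. Dbx2 was thus the only gene of the 10 to pass 2-fold downwards from progenitors to no Dox. Part of this lay in a region 1.47 kb into the gene, which spanned 731 bp in EB, 693 bp in progenitors, 114 bp in no Dox, 539 bp in iHoxc6 and 18 bp in iHoxc9 and was not listed in iHoxc10.

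Set side by side, 5 of the 10 genes (Olig1, Olig2, Nkx6-1, Nkx6-2 and Irx3) had at least 2-fold more covered length in progenitors than in EB and 0 had 2-fold less. Over the 17822 genes tested, which had 200 bp or more in either list, 7.74% were past 2-fold upwards and 8.9% downwards. The median log2 ratio of the 10 genes was 0.87, and that of all genes tested 0.11. The count depends on distal domains. With domains at the TSS window or gene body only, none of the 5 stayed past 2-fold (Olig1 0.93, Olig2 0.59, Nkx6-1 -0.38, Nkx6-2 0.12 and Irx3 0.67) and Dbx1 passed it at 1.85. Within 100 kb of the TSS 5 genes passed, but Nkx6-1 was at 0.30 and Dbx1 at 1.05. The members have wide territories (median 200 kb against 55.9 kb), and no share among genes of like territory was taken. Among genes with 1000 bp or more in either list, all 10 members included, 7.38% were past 2-fold upwards. That limit is on covered length and does not match territory width. In a mixed culture a domain listed in more cells and a domain more open in each cell cannot be told apart.

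From progenitors to no Dox the genes changed little in total covered length. None was past 2-fold upwards and Dbx2 alone was past it downwards (log2 ratio -1.20), where 5.16% and 3.75% of all genes were. The remaining 9 genes lay between -0.06 for Dbx1 and 0.55 for Nkx2-2. The median was 0.27 for the 10 genes and 0.17 for all genes. Behind these totals, regions in no Dox and in neither EB nor progenitors made up 79 of the 403 (19.6%, against 15.6% of all regions). Irx3 alone held 19 of the 79. Among regions at least 200 bp wide there were 22 (13.8% against 10.6%), and no Dox is the list of longest covered length.

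The 3 induced lines were each compared with no Dox, and so share that control. In iHoxc6, 0 of 10 genes passed 2-fold in either direction, with 1.75% of all genes upwards and 4.48% downwards, and values ran from -0.67 for Nkx6-2 to 0.62 for Dbx2. In iHoxc9, 0 genes passed upwards (0.773% of all genes) and 7 passed downwards (27.3% of all genes). These 7 were Irx3 (-1.95), Olig2 (-1.40), Nkx6-2 (-1.39), Pax6 (-1.34), Nkx6-1 (-1.17), Irx5 (-1.10) and Olig1 (-1.08), and Dbx1 lay just short at -0.998. In iHoxc10, 0 passed upwards (0.837%) and only Dbx1 passed downwards (-1.17), against 15.7% of all genes. The Dbx1 call ended with domains of at least 150 bp (-0.88), lists cut to equal number, the TSS of every transcript (-0.60), domains within 100 kb (-0.67), domains at the TSS window or gene body (-0.23) and scaling to list length (-0.63).

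The iHoxc9 list as a whole was short, and that moves with this count. The median gene was at -0.67 in iHoxc9, at -0.49 in iHoxc10 and at -0.25 in iHoxc6, against -1.14, -0.41 and -0.21 for the 10 genes. After every list was scaled to the mean covered length, only Irx3 stayed past 2-fold downwards in iHoxc9 (-1.22), where 7.89% of all genes did, and the median of the 10 genes was -0.41. Under the same scaling Olig2 was at -0.67, Nkx6-2 at -0.67, Pax6 at -0.61 and Dbx2 at 0.26 in iHoxc9. Directions in the other lines were not stable to this scaling. In iHoxc10, Olig1 went from -0.20 to 0.35, Olig2 from -0.36 to 0.19, Nkx6-1 from -0.42 to 0.14, Nkx6-2 from -0.49 to 0.06 and Irx5 from -0.40 to 0.15. In iHoxc6, Olig1, Nkx6-1, Nkx2-2, Irx3 and Irx5 went from below 0 to values of 0.03 to 0.20. Between EB and progenitors, 4 genes stayed past 2-fold, with Nkx6-2 at 0.98, and Nkx2-2 went from 0.01 to -0.15. Between progenitors and no Dox, Irx5 went from 0.12 to -0.09.

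**Figure D3:**
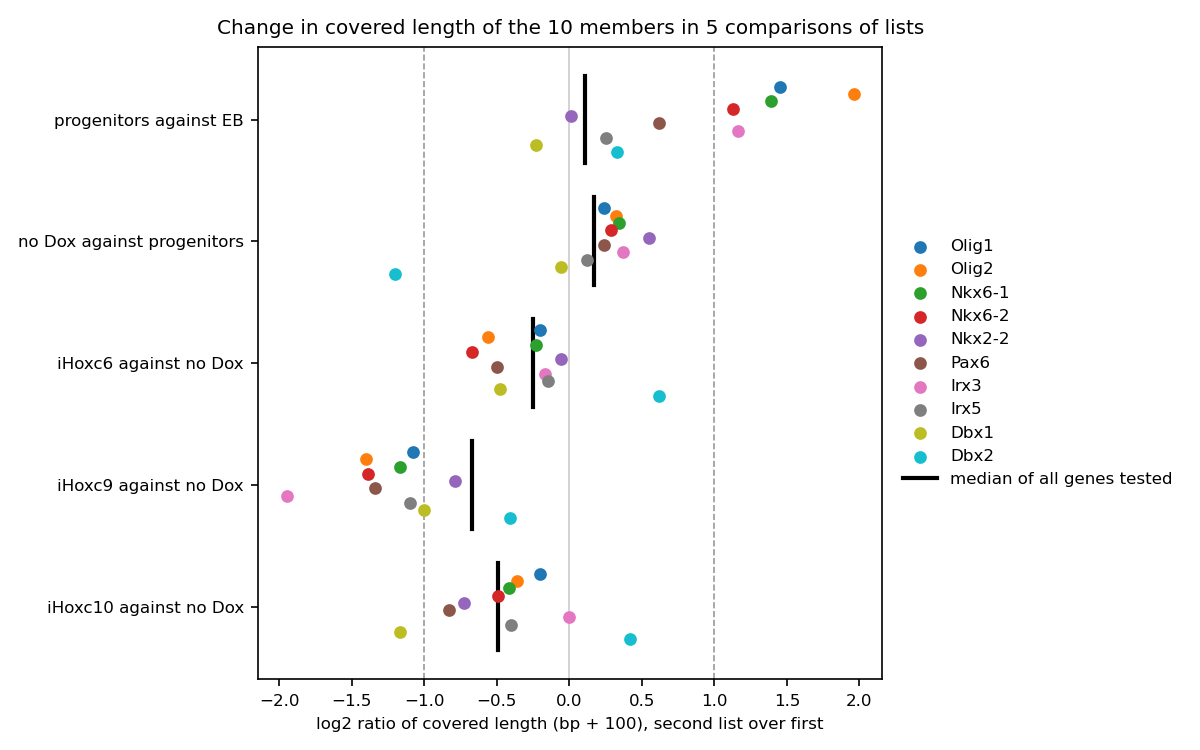
Log2 ratio of covered length (horizontal axis, 100 bp added to both sides) for the 10 genes in the 5 comparisons of lists, named on the vertical axis with the second list first. Points are genes, black bars the median of all genes tested and dashed lines the 2-fold limits. Against EB, 5 genes lie right of the upper limit, and in iHoxc9 the 10 genes lie below 0 with Irx3 at -1.95, although Dbx2 is at 0.26 after scaling to list length.

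A domain over the promoter, within 1 kb of the TSS, was the usual state of these genes already in EB. It was listed for 9 of 10 genes in EB (65.6% of all genes), 9 in progenitors (63%), 8 in no Dox (62.1%), 8 under iHoxc6 (62.3%), 9 under iHoxc9 (59.3%) and 7 under iHoxc10 (59%). The missing ones were Dbx2 in every list, Pax6 in no Dox and iHoxc10, and Dbx1 in iHoxc6 and iHoxc10. Pax6 and Dbx2 are matters of annotation in part. With the TSS of every transcript, Pax6 had a promoter domain in no Dox and iHoxc10 as well. With domains of at least 150 bp, Pax6 had none in iHoxc6 and iHoxc9 either, and Dbx1 none in EB and progenitors. Around the RefSeq start of Dbx2, 1.19 kb from the GENCODE start used here, 175 bp were open in EB, 52 bp in progenitors, 48 bp in no Dox, 53 bp in iHoxc6 and 0 bp in iHoxc9 and iHoxc10.

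Open length within the promoter window was compared too. Of 9 genes with a promoter domain in both EB and progenitors, 7 had more in progenitors, with a median change of 210 bp against 117 bp for all genes, of which 71% had more. In iHoxc9, 1 of 8 genes had more than in no Dox, with a median change of -670 bp against -281 bp for all genes, of which 7.11% had more. Both counts are near the shares over all genes. Nkx2-2 held 1560 bp in no Dox and 1059 bp in iHoxc9, whereas Nkx6-2 held 1450 bp and 421 bp. The RefSeq table had promoter sequence for 8 of the 10 genes, without Olig1 and Irx5. Their median GC content was 59.2% against 52.7% for all 32851 promoters, with 17.5 CpG against 7 in 300 bases.

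Regions were then grouped by the lists that held them. Those in progenitors and all 4 day 4 lists and not in EB made up 24 of the 403 regions of the 10 genes (5.96%), against 2.77% of all regions. None of the 24 lay at a promoter, 5 lay in a gene body and 19 elsewhere, at a median of 51.5 kb and up to 367 kb from the TSS, and they belonged to 9 of the genes. Nkx6-1 had 9 of them, Dbx2 had 3, Olig1, Olig2, Pax6, Irx3 and Dbx1 had 2 each, and Nkx6-2 and Nkx2-2 had 1 each. Among regions at least 200 bp wide the shares were 15.1% and 8.13%.

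These 24 regions were open over 13811 bp in progenitors, 14647 bp in no Dox, 13334 bp in iHoxc6, 8297 bp in iHoxc9 and 13567 bp in iHoxc10. Against no Dox, 20 of the 24 were narrower in the iHoxc9 list, 16 in iHoxc10 and 14 in iHoxc6, where 79.7%, 74.5% and 65.4% of all regions shared with no Dox were narrower. The 39 regions held by all 6 lists covered 19548 bp in EB, 25976 bp in progenitors, 33912 bp in no Dox, 26777 bp in iHoxc6, 15900 bp in iHoxc9 and 21841 bp in iHoxc10. In both sets the iHoxc9 list, the shortest in covered length, was the lowest at day 4.

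Of 98 regions that progenitors held and EB did not, 49 were also in no Dox (50% against 35.4% of all such regions), 46 in iHoxc6 (46.9% against 33.6%), 25 in iHoxc9 (25.5% against 19.6%) and 40 in iHoxc10 (40.8% against 21.4%). The share in iHoxc10 was near that in iHoxc6 for these genes, although over all regions it was near that in iHoxc9. These shares have no width limit, and the regions of these genes were wider (median 123 bp against 69 bp over all regions). The iHoxc10 list held 56232 domains over 20.1 Mb, and the iHoxc9 list 63504 over 17.8 Mb. Whether the contrast holds among regions of like width was not tested. Regions shared with no Dox were narrower in iHoxc9, with a median width ratio of 0.63 (all regions 0.683), and 64 of 79 were narrower, near the 79.7% over all regions. The ratio was 0.816 in iHoxc10 (0.781) and 0.946 in iHoxc6 (0.869).

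**Figure D4:**
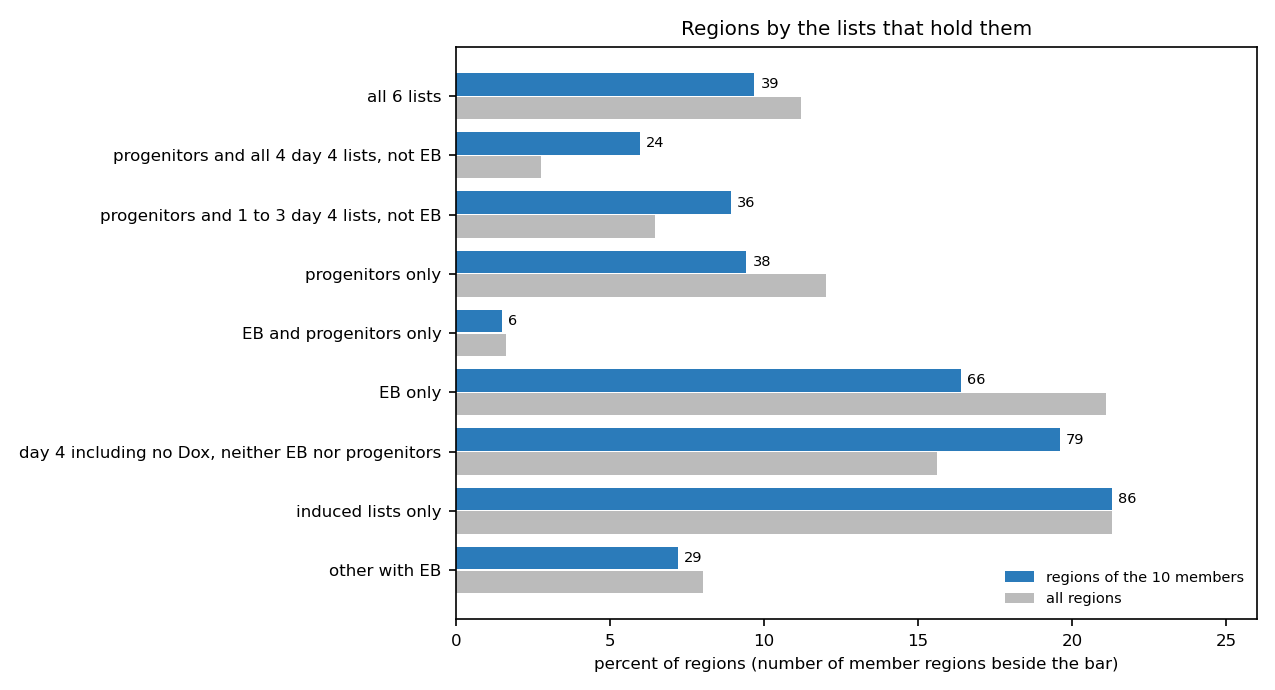
Percent of regions (horizontal axis) by the lists that hold them, for the 403 regions of the 10 genes in blue, with their number beside the bar, and for all 218562 regions in grey. Regions in progenitors and all 4 day 4 lists but not in EB make up 5.96% for the 10 genes and 2.77% over all, and regions of the induced lists only 21.3% in both.

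Genes of the same pathway and of other domains were described by the same rule. Of 6 floor plate and Hedgehog response genes, 2 had 2-fold more covered length in progenitors than in EB, against 7.74% of all genes. These were Ptch1, the Hedgehog receptor, from 4044 to 10416 bp, and Nkx2-9, another ventral homeodomain factor, from 1964 to 4201 bp. Of 8 dorsal progenitor genes, 0 had 2-fold more and 1 had 2-fold less, against 8.9% of all genes downwards. The 1 was Pax7, a dorsal paired-box factor, from 3886 to 1384 bp. Of 6 motor neuron genes and of the 4 other Irx genes, 0 passed 2-fold in either direction. From progenitors to no Dox, 2 of the 6 motor neuron genes had 2-fold more, against 5.16% of all genes. Mnx1 went from 1949 bp in progenitors to 6377 bp in no Dox and Lhx3 from 983 to 2833 bp. Nkx2-9 and Gsx2 had 2-fold less, as did 3.75% of all genes. In iHoxc9, 3 of 6 Hedgehog genes, 5 of 8 dorsal genes, 4 of 6 motor neuron genes and 2 of 4 other Irx genes had 2-fold less than no Dox, beside the 7 of 10 ventral progenitor genes. Over all genes tested 27.3% did. These counts were taken before scaling to list length.

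The gene nearest to the median of the 10 genes over the 6 lists was Sh3pxd2a, at a distance of 0.30 on the log2 scale, followed by Rbfox2 (0.32) and Il11ra1 (0.34). Among the 10 genes themselves, Irx5 was nearest to that median (0.52), and Dbx2 (4.01) and Nkx6-1 (2.68) were farthest from it.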

How the data were processed

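ATAC-seq lists of accessible domains in 6 groups were used. Read pairs were aligned by the authors against mm10 (Bowtie2 version 2.2.2), and DomainFinder was used for domain calls. The submitters' processing notes also name Picard (version 2.8.2). The deposited lists hold start and end positions, made from both replicates of a group together. Thresholds are not given in the sources used here. The no Dox list has 3 more columns, each with 1 repeated value, and the day in its name differs from the label, which was followed.

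Domains of the autosomes, X and Y were assigned to GENCODE M21 protein-coding genes (GRCm38.p6), as described above. A gene was counted as past 2-fold where (bp + 100)/(bp + 100) reached 2, among genes with 200 bp or more in either list. Domains overlapping by 1 bp were merged into regions. Sequences came from RefSeq's GRCm38.p6, and that of an Olig2 region is not reported here. All 10 genes are named, pathway genes where they passed 2-fold between EB and progenitors or as counts, and the 3 genes of nearest profile. Mnx1, Lhx3 and Gsx2 were named after their values were seen. The genes and lists were chosen with earlier results of these data known. The assignment, merging and counting were tested on simulated data. Python 3.11.15, NumPy 2.4.6, pysam 0.24.0 and Matplotlib 3.10.9 were used.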

Additional observations from a re-analysis of the deposited data

Results flagged for a closer look

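Dbx2 had more covered length than no Dox in iHoxc6 (log2 ratio 0.62) and iHoxc10 (0.42) and less in iHoxc9 (-0.41), so that iHoxc6 minus iHoxc9 was 1.03 and iHoxc9 minus iHoxc10 was -0.83. With 1 list per line the difference was not tested, and it rests on 4 or 5 domains per list. Scaled to the mean covered length of the lists, Dbx2 was above no Dox in iHoxc9 as well (0.26).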

How the results depend on the processing

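No paired analysis was possible because 1 list was made from both replicates of each group, which also leaves no replicate to omit. Of 139 counts under alternatives, 119 stayed within 1.5 times the reported count and 20 did not. With domains at the TSS window or gene body only, 1 gene was 2-fold longer in progenitors than in EB (Dbx1), 1 in no Dox than in progenitors (Nkx6-1), and 1 was 2-fold shorter in iHoxc6 than in no Dox (Dbx1). Nkx6-1 reversed there to -0.38 between EB and progenitors, and the length was therefore in distal domains. Within 100 kb of the TSS, 1 gene was 2-fold longer in no Dox than in progenitors. Scaling to the mean covered length left 1 gene shorter in iHoxc9 and 0 in iHoxc10. At a limit of 3-fold, 1 gene was longer in progenitors than in EB, 0 shorter in no Dox than in progenitors, 1 shorter in iHoxc9 and 0 in iHoxc10. At 1.5-fold, 1 gene was longer and 1 shorter in iHoxc6, and 3 were shorter in iHoxc10. With 500 bp added, 0 genes were shorter in no Dox than in progenitors. The iHoxc10 count was 0 with domains of at least 150 bp, with lists cut to equal number, with the TSS of every transcript and within 100 kb. With domains at the TSS window or gene body only it stayed at 1, but the gene was Nkx6-1 and not Dbx1. With domains of at least 150 bp, 17 regions were in all 6 lists and 27 in induced lists only. Of 450 values of single genes, 377 kept their direction and side of the limit. Of those past the limit, 37 fell short of it and 1 reversed. Of those not past it, 11 came to pass it and 24 turned sign. The limit of 1000 bp was added after seeing the data. The cause of the other changes was not tested. Depth is unknown, so a domain absent from a list was only not called there.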
